A study of Mus musculus with 12 samples.

Results

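Here 10 genes were followed, the Fos and Jun family members Fos, Fosb, Fosl2, Jun, Junb and Jund, together with Atf3, Egr1, Ier3 and Myc. They were taken from the gene count table by symbol, and all 10 were found among its 25611 genes. RNA was sequenced from whole livers of 12 male C57BL/6J mice aged 8 to 10 weeks, in 3 groups of 4 mice. Sham mice had an abdominal incision alone, CLP mice had the cecum ligated and punctured, which causes polymicrobial sepsis, and CLP+DCA mice had the same surgery followed by intraperitoneal dichloroacetate (DCA), an inhibitor of the pyruvate dehydrogenase kinases, at 25 mg/kg. DCA was given 24 hr post-surgery, and all livers were collected at 30 hr, which was 6 hr after the drug. Every mouse received saline under the skin. Sham mice given DCA were not analysed here, so that CLP+DCA versus sham holds the surgery and the drug together. Each mouse was 1 replicate.

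The libraries held 24436513 to 44266819 counted reads each. Levels are given as CPM, read counts scaled to TMM-normalized library sizes, and between genes in RPKM, the CPM per kilobase of exon. Differences are edgeR log2 fold changes with their standard error (SE) from a single fit of all 12 mice, and a gene was a differentially expressed gene (DEG) where its Benjamini-Hochberg adjusted p was under 0.05. Of the 10 genes, 9 passed the low-count filter, as did 13190 genes in all, and Fosb did not. The 10 markers of hepatocytes summed to between 87290 and 109200 CPM in sham, 73810 and 90250 in CLP, and 75710 and 86930 in CLP+DCA. In whole liver, a different number of cells of a type and a different amount of RNA per cell cannot be told apart.

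Immediate early genes are transcribed within minutes of a stimulus, without new protein synthesis, when kinases of the MAPK cascades act on transcription factors already bound to their promoters. Fos proteins pair with Jun proteins through a leucine zipper to form AP-1, a dimer that binds short palindromes in DNA, whereas Jun proteins can also pair among themselves. In liver, AP-1, Egr1 and Myc are known from the acute phase of infection and from the start of regeneration after hepatectomy.

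The 250 bases before the RefSeq start site of Jun, Junb and Ier3 (GRCm38.p6, the build of the counts) are shown because Junb and Ier3 separated CLP from sham mice and Jun held the most matches to the motifs searched. Jun is read from the minus strand at chr4:95052223-95052472, Junb from the minus strand at chr8:84978749-84978998 and Ier3 from the plus strand at chr17:35821463-35821712. Each is written 5′ to 3′, and capitals mark a match to 1 of the motifs searched.
Jun: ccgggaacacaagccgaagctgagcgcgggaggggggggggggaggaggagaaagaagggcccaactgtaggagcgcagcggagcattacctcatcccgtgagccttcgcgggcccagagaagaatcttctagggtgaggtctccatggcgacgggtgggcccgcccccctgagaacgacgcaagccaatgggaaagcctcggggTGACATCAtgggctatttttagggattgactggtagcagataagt
Junb: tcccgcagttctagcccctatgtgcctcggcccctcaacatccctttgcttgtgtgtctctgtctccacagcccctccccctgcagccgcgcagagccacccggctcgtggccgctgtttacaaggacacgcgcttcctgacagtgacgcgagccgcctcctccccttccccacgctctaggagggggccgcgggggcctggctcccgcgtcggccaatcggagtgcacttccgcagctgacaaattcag
Ier3: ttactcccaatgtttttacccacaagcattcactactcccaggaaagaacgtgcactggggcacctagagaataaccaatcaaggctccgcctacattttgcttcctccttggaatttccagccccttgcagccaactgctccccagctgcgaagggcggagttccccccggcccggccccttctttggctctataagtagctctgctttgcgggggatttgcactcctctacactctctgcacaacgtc

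RefSeq promoters, of 300 bases with 250 before and 50 after the start, were at hand for 8 of the 10 genes, all except Egr1 and Myc. They were searched on both strands, each motif by itself, and no 2 matches shared a base. The 7-base AP-1 element TGANTCA was found in 0 of the 8 and in 7.81% of 32851 mouse promoters. The 8-base form TGANNTCA was found in 2 of the 8 and in 14.1% of all promoters. Jun had it at 2 places, the first starting 45 bases before the start site, and Jund had it at 1, starting 61 bases before. The Egr element GCGNGGGCG was found in 2 of the 8, in Fosb starting 50 and in Fosl2 starting 79 bases before the start, and in 5.55% of all promoters. The CArG box bound by serum response factor was found in 0 of the 8 (1.63% of all promoters), as was the E-box CACGTG bound by Myc (7.15%). These matches describe the letters in this window only, and distances are from the RefSeq start. For Jund, GENCODE starts the gene at chr8:70698949, downstream of the RefSeq window, which ends at 70697788. For Fosl2 it starts the gene at chr5:32135801, before the window, which begins at 32136222. For Atf3, on the minus strand, the GENCODE gene reaches chr1:191218039, upstream of the window at 191183284 to 191183583.

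Per kilobase of exon, the order of the 10 genes in sham livers was led by Jund, the Jun family member found in most resting cells, and Junb. Jund had a mean of 44.4 RPKM ± 6.27 (SD, n = 4) and Junb 34.7 ± 8.51. These neighbours overlapped, with Jund between 39.2 and 52.5 and Junb between 25.3 and 45.05 RPKM. Jun (5.35 ± 3.33), Egr1 (3.84 ± 3.61), Fos (2.77 ± 3.04), Fosl2 (1.88 ± 0.38) and Myc (1.30 ± 0.95) followed, again with overlapping ranges. Ier3 (0.627 ± 0.0933 RPKM) stood above Atf3 (0.310 ± 0.0400) without overlap in sham mice, and Fosb was lowest at 0.00582 ± 0.00791. The place of Jund depended on the length used. GENCODE gives it 1668 bases of exon, while the deposited span is 2878 bases, and by the span its mean in sham was 25.7 RPKM, below that of Junb.

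**Figure D1:**
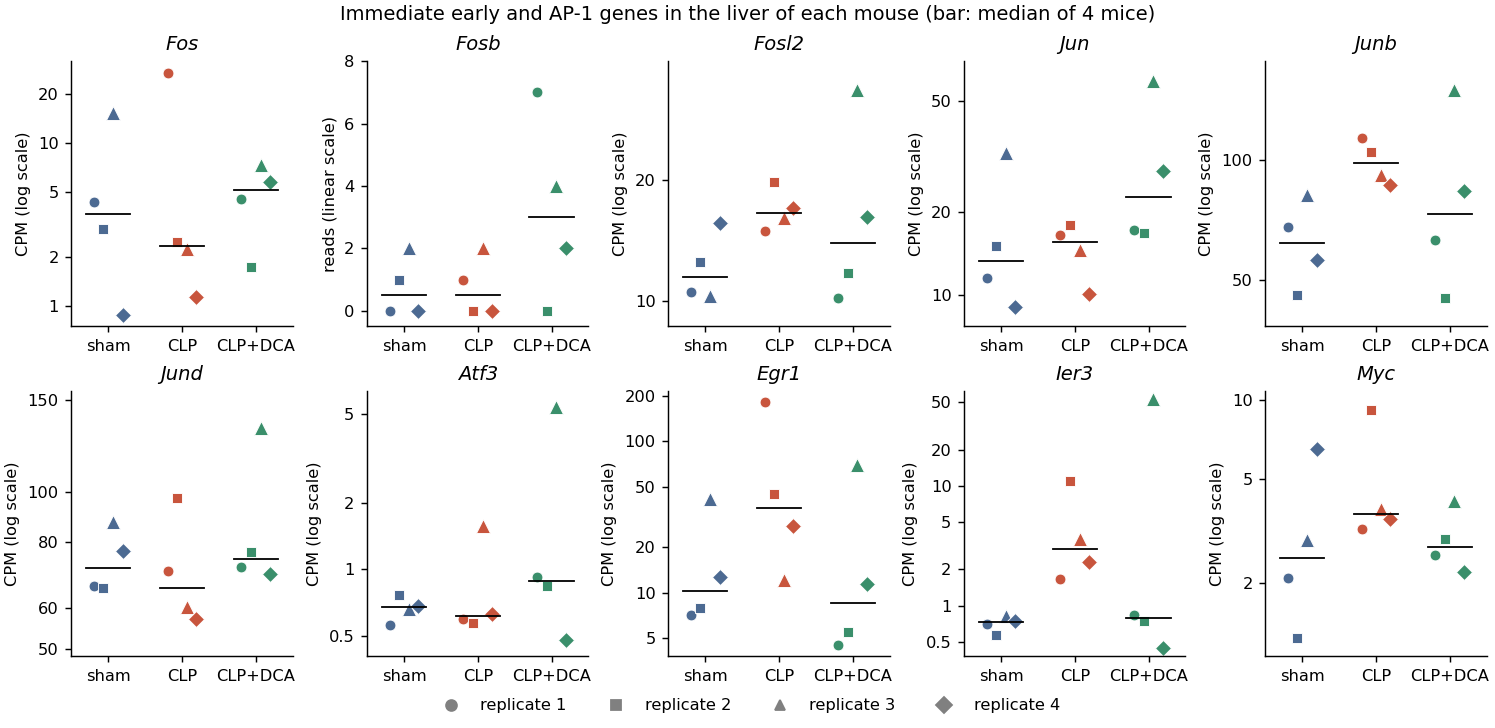
Levels of the 10 genes in each of the 12 livers, as CPM on a log axis, or as reads on a linear axis for Fosb. Symbols mark the replicate number and bars the group median. For Ier3, the 4 CLP mice lie between 1.66 and 11.01 CPM and all above the 4 sham mice, while 1 CLP+DCA mouse reaches 52.4 CPM.

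CLP versus sham asks how sepsis altered these genes at 30 hr. None of the 9 genes tested was a DEG with edgeR's quasi-likelihood test, where 2.78% of all genes tested were (367 genes). An unadjusted p under 0.05 was found for 0 of the 9 and for 3772 of the 13190 genes tested. DESeq2 on the same 12 mice called 0 of the 8 to which it gave a p (13.4% of all genes). It gave none to Ier3, whose counts it took as outlying. Of the 9, 7 had a positive log2 fold change, with a median of 0.51 over the 9 against 0.02 over all genes. The groups did not overlap for 2 of the 9, Ier3 and Junb, both higher in CLP, whereas the groups did not overlap in either direction for 26.5% of all genes and were higher in CLP for 12.2%.

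Ier3, a short-lived stress-response protein that acts on cell survival and ERK signalling, was at 0.707, 0.570, 0.823 and 0.739 CPM in the sham mice 1 to 4 and at 1.66, 11.01, 3.58 and 2.29 CPM in the CLP mice 1 to 4. Every CLP mouse was above every sham mouse, and the sham mice lay close together. The log2 fold change was 2.68 (SE 1.43, edgeR adjusted p = 0.229), the mean being 4.64 CPM ± 4.33 (SD, n = 4) in CLP and 0.709 ± 0.106 in sham. Without CLP replicate 2 the log2 fold change was 1.83.

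Junb, a Jun protein that restrains as well as drives AP-1 targets, was at 67.9, 45.8, 81.5 and 56.0 CPM in sham and at 113.9, 104.6, 91.5 and 86.3 CPM in CLP. The lowest CLP mouse stood just above the highest sham mouse. Its log2 fold change was 0.66 (SE 0.31, edgeR adjusted p = 0.189), from 62.8 CPM ± 15.4 to 99.0 ± 12.5 (SD, n = 4).

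The SE behind these values was shared with CLP+DCA mice, of which replicate 3 stood far from the others. When that mouse was left out of the fit, the same log2 fold changes passed the test for Ier3 (2.68, SE 0.55, edgeR adjusted p = 0.00901) and Junb (0.66, SE 0.21, edgeR adjusted p = 0.0396), at a background of 23.8% of all genes. That mouse was singled out because it was high for these genes, so the smaller SE is a description and not a separate test. Ier3 and Junb were also called by edgeR on the 8 sham and CLP mice (background 18.3%) and by voom with quality weights (25.9%), and DESeq2 on the 8 mice called Fosl2, Ier3 and Junb (23.2%). Of the 9 genes, then, 2 or 3 were called where 18.3 to 25.9% of all genes were.

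Summed markers of some other cells also differed between sham and CLP mice, in either direction. The 12 neutrophil markers summed to between 6.46 and 9.30 CPM in sham and between 32.2 and 46.2 CPM in CLP, although Mpo was at 0 reads in 3 of the 4 CLP mice. The 8 markers of stellate cells and cholangiocytes summed to between 55.6 and 86.8 CPM in sham and between 118.5 and 330.5 in CLP. The 9 lymphocyte markers summed to between 2.13 and 4.24 CPM in sham and between 0.539 and 1.74 in CLP. The groups overlapped for Kupffer cell and macrophage markers, at 171.4 to 287.4 CPM in sham and 267.5 to 346.2 in CLP. They also overlapped for endothelium markers, at 92.6 to 118.8 CPM in sham and 110.9 to 139.3 in CLP. Single DEGs among the marker lists were Alb among hepatocyte markers (log2 fold change -1.11, edgeR adjusted p = 0.0463) and Retnlg among neutrophil markers (3.105, edgeR adjusted p = 0.0254). Of all genes tested in that fit, 2.78% were DEGs. The fit without CLP+DCA replicate 3 was filtered anew, so its counts, here and below, are of listed genes. A listed gene that fails the filter counts as not called, whereas the background is of genes tested. In it, 8 of 12 neutrophil markers and 7 of 8 stellate cell and cholangiocyte markers were called higher. Of 9 lymphocyte markers, 4 were called lower. Of 6 endothelium markers, 3 were called higher, as was 1 of 10 Kupffer cell and macrophage markers. Of 10 hepatocyte markers, 1 was called higher and 3 lower. In that fit 23.8% of the genes tested were called in either direction. Of the 4 lymphocyte markers tested in the fit of all 12 mice, 3 were lower and 1 was higher in CLP. The part of these in the higher Ier3 and Junb levels was not tested.

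Egr1, a zinc finger factor and a classic target of serum response factor, was at 7.07, 7.87, 41.2 and 12.6 CPM in sham and at 182.8, 44.7, 12.04 and 27.3 CPM in CLP. Replicate 1 held the highest value of the CLP mice and replicate 3 the lowest, below the highest sham mouse. The log2 fold change was 1.96 (SE 1.05, edgeR adjusted p = 0.231), and 0.70 without CLP replicate 1.

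Fos, the founding partner of Jun in AP-1, was at 4.35, 2.95, 15.2 and 0.875 CPM in sham and at 26.9, 2.44, 2.22 and 1.12 CPM in CLP. Here, too, the highest value belonged to CLP replicate 1, and the other 3 CLP mice lay within the sham range. The log2 fold change of 0.51 (SE 0.9997, edgeR adjusted p = 0.751) became -1.59 (SE 0.82, adjusted p = 0.232) without that mouse.

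Fosl2, a Fos protein that lacks the strong activation domain of Fos, was at 10.5, 12.5, 10.3 and 15.7 CPM in sham and at 14.95, 19.8, 16.1 and 17.1 CPM in CLP. The groups overlapped by 1 sham mouse. Its log2 fold change of 0.47 (SE 0.32, edgeR adjusted p = 0.336) passed only with DESeq2 on the 8 mice (0.46, adjusted p = 0.0313) among the alternatives run. Jun and Jund, the remaining partners, had log2 fold changes of -0.21 (SE 0.46) and -0.06 (SE 0.23), and both signs turned without sham replicate 3 (0.31 and 0.03).

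Myc, which drives genes of ribosome production and growth, was between 1.24 and 6.51 CPM in sham and between 3.23 and 9.19 CPM in CLP, a log2 fold change of 0.62 (SE 0.48, edgeR adjusted p = 0.398) that was 0.14 without CLP replicate 2. Atf3, a stress-induced repressor of the ATF/CREB family, was between 0.558 and 0.768 CPM in sham. The other CLP mice held 0.574 to 0.629 CPM and replicate 3, 1.57. Its log2 fold change of 0.36 (SE 0.69, edgeR adjusted p = 0.749) was -0.16 without that mouse. Fosb, an inducible Fos protein, had 0, 1, 2 and 0 reads in the sham mice and 1, 0, 2 and 0 in the CLP mice. A count of 0 allows up to 3 reads by counting error alone, or 0.0821 to 0.144 CPM in the 5 mice without a read, so that no difference was detectable at this depth (two-sided exact permutation p = 0.8286 on log2 CPM).

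**Figure D2:**
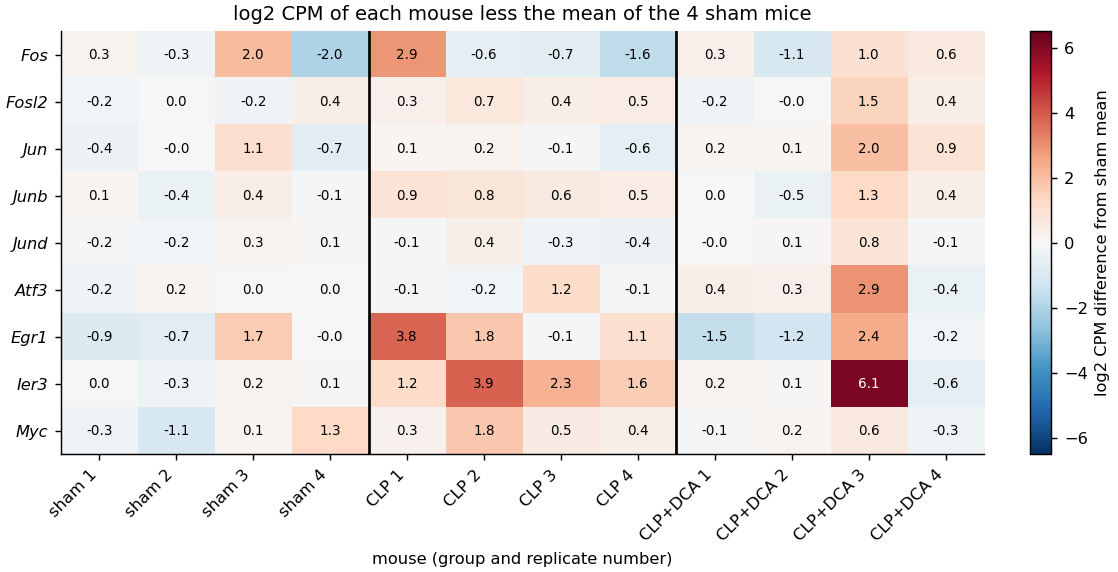
The log2 CPM of each mouse less the mean of the 4 sham mice, for the 9 genes tested (rows) and the 12 mice (columns, split by group). Red is above and blue below the sham mean. CLP+DCA replicate 3 is above it for all 9 genes, by up to 6.10 for Ier3.

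CLP+DCA replicate 3 was read apart from the other mice. It was the highest of its group for 9 of the 9 genes tested, and for 39.2% of all genes. It lay more than 2-fold above the next CLP+DCA mouse for 5 of the 9 and for 6.13% of all genes. These were Ier3 (52.4 CPM against at most 0.830, 63.1-fold), Egr1 (69.8 against at most 11.45, 6.10-fold), Atf3 (5.42 against at most 0.926, 5.85-fold), Jun (59.0 against at most 28.1, 2.10-fold) and Fosl2 (33.6 against at most 16.2, 2.07-fold). Junb and Jund were 1.80-fold and 1.72-fold, Myc 1.39-fold and Fos 1.27-fold above the next mouse. Fosb was highest in replicate 1, with 7 reads.

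That library was sequenced to 40251177 reads, within the range of the others. The neutrophil markers summed to 61.4 CPM in it and to between 6.77 and 14.4 CPM in the other 3 CLP+DCA mice, and Mpo was at 0 reads in it. The stellate cell and cholangiocyte markers summed to 250.3 CPM against 73.3 to 79.8, and the 7 heat shock genes to 650.6 CPM against 1223 to 1377. Lymphocyte markers summed to 0.867 CPM against 2.07 to 3.13, with Cd79a and Ms4a1 at 0 reads. Kupffer cell and macrophage markers summed to 227.6 CPM, between 225.0 and 435.8 in the others. The part of these in its levels was not tested. Sham replicate 3 also held the highest value of its group for 6 of the 9 genes (27.6% of all genes). It lay more than 2-fold above the next sham mouse for 3 of the 9, Fos, Jun and Egr1, and for 0.167% of all genes.

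In CLP+DCA versus CLP, which asks what DCA altered in septic liver, the injection and the drug cannot be told apart, since a vehicle injection of the CLP mice is not described in the sources used here. None of the 9 genes was a DEG with edgeR, where 0.00758% of all genes were, and none of the 8 given a p by DESeq2 on 12 mice was called (0.875% of all genes). Of the 9, 1 (Jun) had an unadjusted p under 0.05, as had 1319 of the 13190 genes tested. The groups overlapped for all 9 genes, while they did not for 4.37% of all genes. The median log2 fold change was 0.08 over the 9 and 0.01 over all genes. Without CLP+DCA replicate 3, Ier3 fell (edgeR log2 fold change -2.76, SE 0.62, adjusted p = 0.0369), 1 of 9 genes called at a background of 4.64%. That mouse was set aside because it was high for these genes, so values without it are a description and not a separate test of lower levels. With voom and quality weights 1 of 9 was called, Egr1 (log2 fold change -3.27, adjusted p = 0.04995), at a background of 9.76%.

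Ier3 was at 0.830, 0.739, 52.4 and 0.445 CPM in the CLP+DCA mice 1 to 4. Of these, 3 lay below the lowest CLP mouse (1.66 CPM) and the fourth above the highest (11.01 CPM). Over all 12 mice its log2 fold change was therefore positive, 1.58 (SE 1.27, edgeR adjusted p = 0.710), and the sign rests on that 1 mouse.

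Egr1 was at 4.47, 5.48, 69.8 and 11.45 CPM in CLP+DCA. Its log2 fold change versus CLP was -1.55 (SE 1.03, edgeR adjusted p = 0.648), -3.23 (SE 1.05, adjusted p = 0.0903) without CLP+DCA replicate 3, and -0.29 without CLP replicate 1. Junb was at 62.9, 44.8, 150.4 and 83.3 CPM in CLP+DCA, so that 3 mice were below the lowest CLP mouse at 86.3 CPM. The log2 fold change was -0.21 (SE 0.31), and -0.64 (SE 0.22, edgeR adjusted p = 0.0988) without replicate 3. Myc, at 2.55, 2.96, 4.12 and 2.19 CPM in CLP+DCA, had a log2 fold change of -0.73 (SE 0.49, edgeR adjusted p = 0.649), and -0.25 without CLP replicate 2.

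Jun was the gene with the smallest p in this comparison. It was at 16.5, 17.9, 14.5 and 10.1 CPM in CLP and at 17.1, 16.7, 59.0 and 28.1 CPM in CLP+DCA, overlapping by the 2 lowest CLP+DCA mice. The log2 fold change was 1.04 (SE 0.46, edgeR adjusted p = 0.497), and 0.48 (SE 0.40) without replicate 3. Jund was at 71.8, 76.7, 132.2 and 69.5 CPM in CLP+DCA and between 57.0 and 97.2 in CLP, a log2 fold change of 0.30 (SE 0.23) that was 0.03 (SE 0.17) without replicate 3. Fos was at 4.53, 1.71, 7.31 and 5.76 CPM in CLP+DCA, 3 of them above the 3 lower CLP mice. Its log2 fold change of -0.78 (SE 1.005) turned to 1.32 (SE 0.82) without CLP replicate 1. Atf3 was at 0.926, 0.840, 5.42 and 0.477 CPM and Fosl2 at 10.2, 11.7, 33.6 and 16.2 CPM in CLP+DCA. Their log2 fold changes, 1.16 (SE 0.67) and 0.08 (SE 0.32), became -0.21 and -0.41 without replicate 3. Fosb had 7, 0, 4 and 2 reads in CLP+DCA, which did not differ from CLP beyond the spread between mice (two-sided exact permutation p = 0.171).

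**Figure D3:**
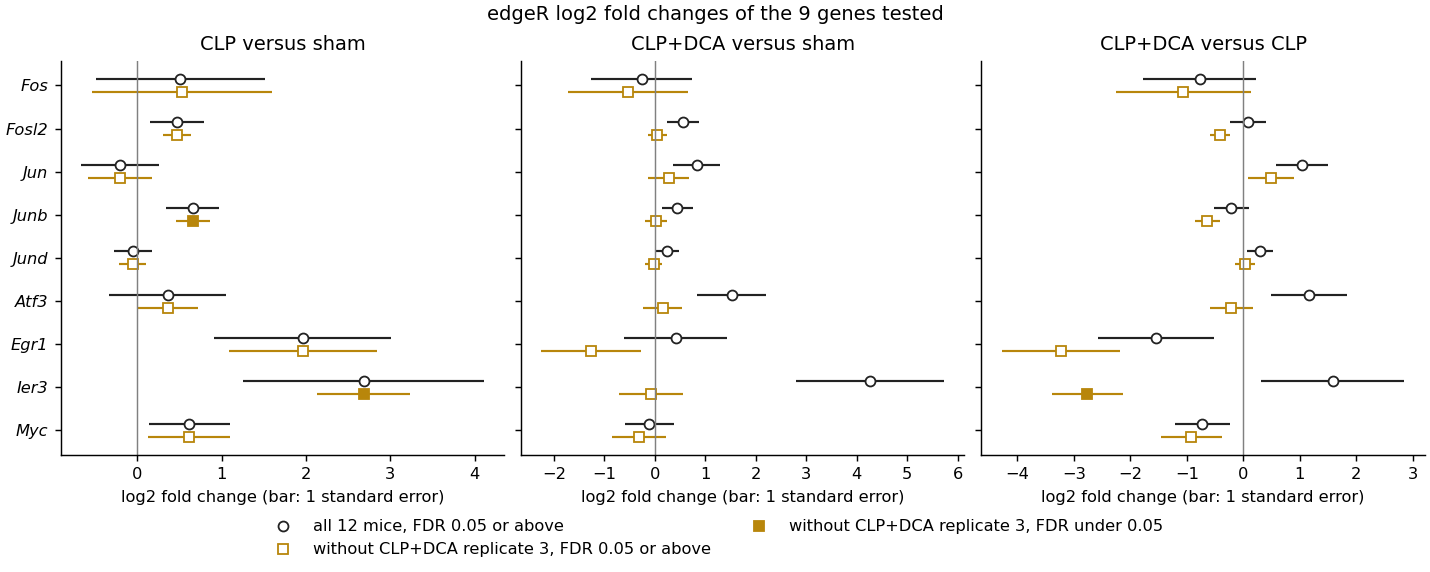
Log2 fold changes of the 9 genes tested in the 3 comparisons (horizontal axis, bars 1 SE), from all 12 mice (black circles) and without CLP+DCA replicate 3 (gold squares). Filled symbols have an adjusted p under 0.05. Leaving out the mouse moves Ier3 from 1.58 to -2.76 in CLP+DCA versus CLP and from 4.26 to -0.07 in CLP+DCA versus sham.

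In CLP+DCA versus sham, which shares its mice with both other comparisons, none of the 9 genes was a DEG with edgeR (0.0379% of all genes). None of the 8 given a p by DESeq2 on 12 mice was called (1.79%). Of the 9, 2, Atf3 and Ier3, had an unadjusted p under 0.05 with edgeR, as had 1714 of the 13190 genes tested. The groups overlapped for all 9, while they did not for 9.76% of all genes. Ier3 had a log2 fold change of 4.26 (SE 1.47, edgeR adjusted p = 0.301) and Atf3 of 1.52 (SE 0.68, adjusted p = 0.379). Without replicate 3 they were -0.07 (SE 0.64) and 0.15 (SE 0.39). For Ier3, the other 3 CLP+DCA mice, at 0.445 to 0.830 CPM, spanned the sham range of 0.570 to 0.823. Junb had 0.44 (SE 0.31) over all mice and 0.02 (SE 0.22) without that mouse, and Egr1 0.41 (SE 1.02) and -1.27 (SE 0.99). For Fosb the two-sided exact permutation p was 0.200.

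**Figure D4:**
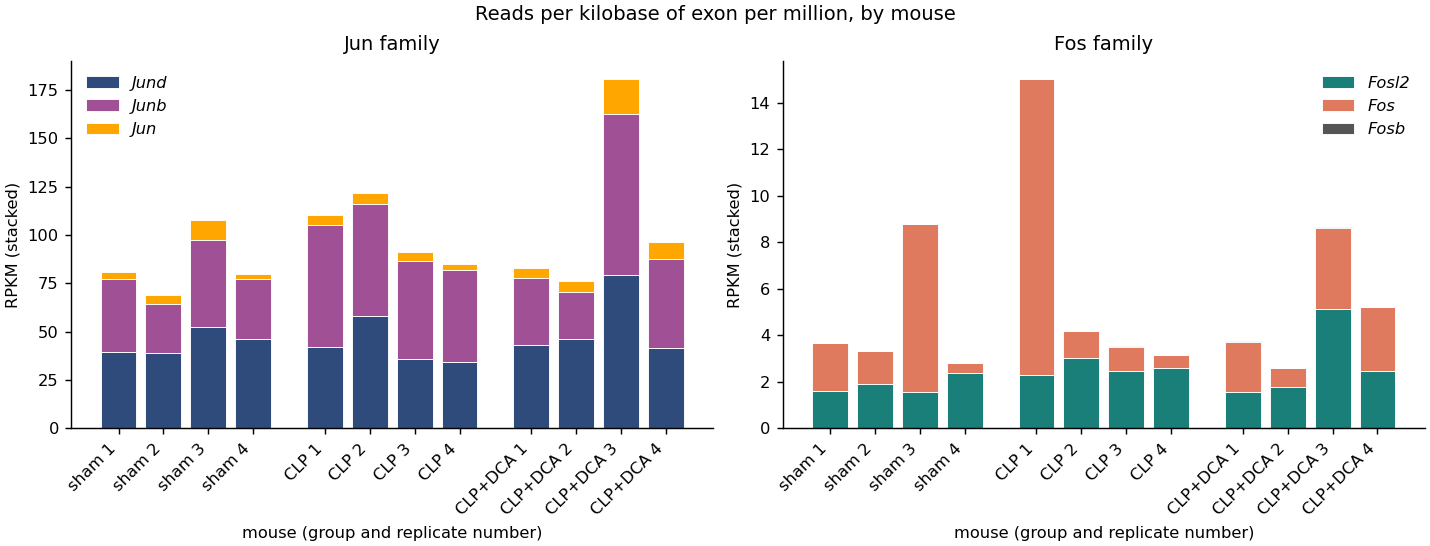
Stacked RPKM of the 3 Jun genes (left) and the 3 Fos genes (right) in each mouse. The sum of the Jun genes is 180.9 RPKM in CLP+DCA replicate 3 and at most 121.7 in any other mouse, and Fos is at 12.75 RPKM in CLP replicate 1 and 7.21 in sham replicate 3, its highest values.

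Because AP-1 is a dimer, the share of each family member was set out per length, as a description. Jun genes summed to between 69.2 and 107.7 RPKM in sham, 85.1 and 121.7 in CLP, and 76.0 and 180.9 in CLP+DCA. Junb made up 36.6 to 46.5% of this sum in sham, 47.5 to 57.0% in CLP and 32.6 to 47.7% in CLP+DCA, so that every CLP mouse was above every sham mouse. Jund made up 48.7 to 57.7% in sham, 38.3 to 47.9% in CLP and 43.2 to 60.5% in CLP+DCA, with every CLP mouse below every sham mouse. Junb and Jund are shares of the same sum, so these are not separate findings. All these shares take 1668 bases of exon for Jund. By the deposited span of 2878 bases its mean in sham was 25.7 RPKM, below Junb at 34.7, and shares by that length were not computed. Jun, the strongest activator of the family, was the smallest part at 3.56 to 9.48% in sham, 3.72 to 5.0% in CLP and 6.45 to 10.2% in CLP+DCA. Fos genes summed to far less, 2.81 to 8.80 RPKM in sham, 3.14 to 15.0 in CLP and 2.61 to 8.64 in CLP+DCA. Fosl2 made up between 15.2 and 85.2% of the Fos sum over the 12 mice and Fos nearly all of the rest, while Fosb reached 1.57% at most.

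Other genes of the same pathways were taken from lists. Of 24 further immediate early genes, 18 were tested, and in CLP versus sham 1 was a DEG higher and 3 were DEGs lower in CLP (background 1.64% higher and 1.14% lower). Ier5, a regulator of heat shock factor, rose from 5.87 CPM ± 0.115 in sham to 13.2 ± 3.30 in CLP (SD, n = 4), a log2 fold change of 1.16 (SE 0.25, edgeR adjusted p = 0.0415). Sik1, a salt-inducible kinase of the cAMP response, fell from 34.0 CPM ± 9.60 to 14.0 ± 2.12 (log2 fold change -1.28, SE 0.24, edgeR adjusted p = 0.0294). Dusp1, the phosphatase that switches off p38 and JNK, fell from 24.6 CPM ± 6.10 to 10.8 ± 2.20 (-1.19, SE 0.25, edgeR adjusted p = 0.0390). Cyr61, a secreted matrix protein and YAP target, fell from 12.5 CPM ± 5.93 to 2.93 ± 0.957 (-2.08, SE 0.43, edgeR adjusted p = 0.0385). None of the 4 overlapped between the groups. The median log2 fold change of the 18 was 0.36, against 0.02 over all genes. Without CLP+DCA replicate 3, 4 of the 24 listed were called higher and 3 lower, at a background of 23.8% of the genes tested in either direction.

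Dusp1 was at 9.88, 12.4, 12.7 and 8.08 CPM in the CLP mice and at 36.7, 55.5, 27.3 and 33.2 CPM in the CLP+DCA mice. Every CLP+DCA mouse, replicate 3 included, was above every CLP mouse. The log2 fold change was 1.82 (edgeR adjusted p = 0.0718), and it passed without replicate 3 (1.95, SE 0.24, edgeR adjusted p = 0.00779) but not with edgeR on the 8 mice compared (1.83, adjusted p = 0.163). It passed in 6 of 21 alternatives, with adjusted p between 1.73e-08 and 0.246. Sik1 was at 27.0, 30.1, 50.9 and 27.2 CPM in CLP+DCA, also above all CLP mice, with a log2 fold change of 1.27 (edgeR adjusted p = 0.127) that was 1.005 (adjusted p = 0.0213) without replicate 3 and passed in 4 of 21 alternatives, with adjusted p between 0.000352 and 0.346. These values of Dusp1 and Sik1 were picked after they were seen. No gene of the pathway lists was a DEG in CLP+DCA versus CLP or versus sham with edgeR on all mice. Without replicate 3, 2 of the 24 listed immediate early genes were called higher and 1 lower in CLP+DCA versus CLP. Of the listed genes, 5 of 13 AP-1 targets and 6 of 12 neutrophil markers were called lower. So were 2 of 8 stellate cell and cholangiocyte markers and 1 of 6 endothelium markers. Called higher were 1 of 10 hepatocyte markers and 1 of 9 lymphocyte markers. Of 23 upstream genes, 1 was called in each direction. The background in that fit was 4.64% of the genes tested. The other pathway lists then held no call.

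Of 13 AP-1 targets, 9 were tested and 1 was a DEG, higher in CLP (background 1.64% higher). Mmp9, a gelatinase of the extracellular matrix, rose from 0.495 CPM ± 0.180 to 2.54 ± 0.802 (SD, n = 4), a log2 fold change of 2.38 (SE 0.54, edgeR adjusted p = 0.0461). The median of the 9 was 1.07. Without CLP+DCA replicate 3, 6 of the 13 listed were called higher and 1 lower, at a background of 23.8% of the genes tested in either direction. The list is not free of cell markers: Mmp8 is also among the neutrophil markers, whose sums are given above. Mmp9 was at 0.255, 0.941, 2.11 and 0.509 CPM in the CLP+DCA mice 1 to 4, highest in replicate 3, as was the neutrophil sum. Among CLP mice, Mmp9 was highest in replicate 3 (3.63 CPM) but the neutrophil sum in replicate 2. The part of neutrophils in the Mmp9 level was not tested. Of the 16 Myc targets, all tested, 1 was a DEG, lower in CLP (background 1.14% lower). Npm1, the nucleolar chaperone nucleophosmin, fell from 101.8 CPM ± 9.33 to 72.8 ± 11.2 (SD, n = 4; log2 fold change -0.48, SE 0.11, edgeR adjusted p = 0.0474), and the median of the 16 was 0.02.

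The remaining pathway lists held no DEG in CLP versus sham with edgeR on 12 mice. Of 10 other AP-1 and partner bZIP genes, 8 were tested, and the smallest p belonged to Maff, a small Maf protein, at 3.69 to 5.67 CPM in sham and 1.71 to 2.30 in CLP (log2 fold change -1.11, SE 0.38, edgeR adjusted p = 0.0956). Of the 23 upstream kinases and serum response factor partners it belonged to Mapk14, which encodes p38α (0.24, SE 0.08, edgeR adjusted p = 0.0855). Of 9 Myc network partners tested it belonged to Mxi1, a Myc antagonist (-0.28, SE 0.08, edgeR adjusted p = 0.0661), and of 7 MAPK phosphatases tested to Dusp8 (1.10, SE 0.96, edgeR adjusted p = 0.447). Maff, Mapk14 and Mxi1 passed in 5, 4 and 6 of 21 alternatives. Among these was the fit without CLP+DCA replicate 3, in which 23.8% of the genes tested passed. In that fit, of the listed genes, 1 of 10 bZIP genes, 1 of 10 Myc network partners and 2 of 16 Myc targets were called lower. There 1 Myc target was called higher, and of 23 upstream genes 4 were called higher and 2 lower. The smallest p among the 7 heat shock genes was that of Hspa1a, whose reads cannot be told apart with certainty from those of its near-identical copy Hspa1b (0.78, SE 0.64, edgeR adjusted p = 0.420).

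**Figure D5:**
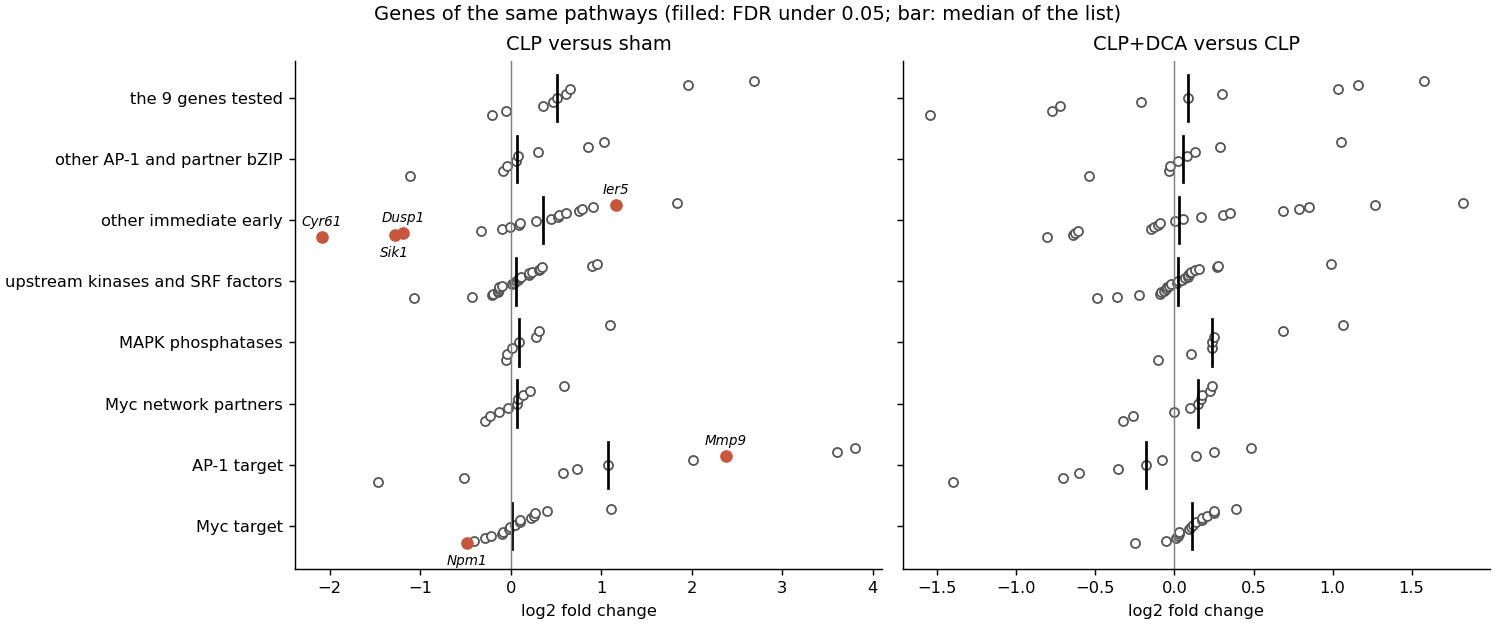
Log2 fold changes of single genes (points) in 8 lists, for CLP versus sham (left) and CLP+DCA versus CLP (right). Filled points have an adjusted p under 0.05 and bars are list medians. The 6 filled and named genes are all in CLP versus sham, and the 9 genes tested have a median of 0.51 there.

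The genes whose level followed the 9 genes most closely were sought over the 12 mice, after group means were removed, as the Pearson correlation with the mean standardized log2 CPM of the 9. Lrat, an enzyme of retinol storage, came first (r = 0.963), followed by Gsr, glutathione reductase (0.951), Cd33, a sialic acid receptor of myeloid cells (0.951), Cdr2l (0.935) and Adamts1, a matrix protease (0.935). Adamts1 was at 42.0 CPM in CLP+DCA replicate 3 and between 3.53 and 10.7 CPM in the other 11 mice. Without that mouse the correlations were 0.904, 0.868, 0.892, 0.831 and 0.817 over 11 mice. The group means removed were still those of all 12 mice, so that mouse still enters these values. The points share libraries and depth, and Lrat is also among the stellate cell markers. Within the 9, each gene is itself part of their mean, which raises its correlation with it. That correlation was largest for Jund (0.914), Junb (0.894) and Ier3 (0.879) and smallest for Fos (0.435) and Myc (0.455). The order changed without CLP+DCA replicate 3, to 0.853 for Jund, 0.785 for Junb, 0.768 for Jun, 0.754 for Egr1, 0.646 for Ier3, 0.499 for Fos, 0.444 for Myc, 0.426 for Fosl2 and 0.159 for Atf3. Here, too, the group means of all 12 mice were kept.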

How the data were processed

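Livers of 12 mice were sequenced by the authors as poly(A)-enriched paired-end TruSeq libraries. Per the labels and the study's methods, reads were aligned to mm10 with STAR 2.5 and counted per gene with featureCounts (Subread 1.5.0-p1), and the deposited values are the unnormalized read counts of each gene and mouse. The annotation and the strand setting of the counting are not given in the sources used here. No other gene of the table overlaps the span of any of the 10 genes.

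Counts were analysed in R 4.3.3 with edgeR 4.0.16. Genes were filtered with filterByExpr (minimum count 10), normalized by TMM and fitted with a robust quasi-likelihood model over all 12 mice, with group as the only term. The 3 contrasts were tested at a Benjamini-Hochberg FDR of 0.05, and the SE is the log2 fold change divided by the square root of F. Log2 CPM has a prior count of 2. Fosb, removed by the filter, was compared by two-sided exact permutation of log2 CPM. Exon lengths came from GENCODE M21 and promoters from RefSeq, both on GRCm38. The fits were tested on simulated data. The limit given for a count of 0 covers counting error only, since PCR copies cannot be told from separate molecules here.

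Alternatives were DESeq2 1.42.0 on 12 or on the 8 mice compared, edgeR on the 8 mice, voom with quality weights (limma 3.58.1), RLE or library size alone, no filter, 1 CPM in 4 mice, an FDR of 0.1, the replicate number as a block, and leaving out each mouse. The 10 genes, the lists and the tests were chosen with earlier results of these data known. Named are all 10, from each other list the 4 DEGs of CLP versus sham with the smallest p at most (otherwise the gene with the smallest p), DEGs of CLP+DCA versus CLP, and the 5 genes most alike in pattern. Lists were written from general knowledge and got no set test.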

Additional observations from a re-analysis of the deposited data

Results flagged for a closer look

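Within each group of 4 mice, the gap between the most extreme mouse and its neighbour was set against the whole range of the group, on log2 CPM, for the genes tested and named (60 pairs of a gene and a group). It exceeded the critical value for 4 samples in 5 of them, and chance gives about 5% of pairs. The share of the range was 0.878 for Ier3 and 0.848 for Jund in CLP+DCA replicate 3, and 0.83 for Sik1 in the same mouse, which was the highest in each case. It was 0.913 for Atf3 in CLP replicate 3 and 0.839 for Myc in CLP replicate 2, also the highest of their groups.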

How the results depend on the processing

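Of 564 log2 fold changes of the 9 genes recomputed under the alternatives, 527 kept their sign and crossed no threshold (6 of these had no adjusted p from DESeq2), 10 passed it newly and 27 changed sign. The number of the 9 called in CLP versus sham, 0 with edgeR on 12 mice, was 3 with DESeq2 and 2 with edgeR on the 8 mice, 2 with voom, and 0 to 2 when each mouse was left out in turn. In CLP+DCA versus CLP it was 1 with voom and 0 to 1 when each mouse was left out. Both 2 and 1 came without CLP+DCA replicate 3. In CLP+DCA versus sham it stayed at 0 under every alternative run. Over all genes, the DEGs of CLP versus sham numbered 367 with edgeR, 1906 with DESeq2 on 12 and 3422 on 8 mice, 2387 with edgeR on 8 mice, 3417 with voom, 209 by library size alone, 122 without a filter, and 10 to 3157 when a mouse was left out. Library size alone moved the median of all genes from 0.02 to -0.15. The cause of these differences was not tested. The calls of Sik1, Dusp1, Cyr61, Mmp9, Ier5 and Npm1 in CLP versus sham kept their sign throughout, but passed in 13, 12, 11, 10, 10 and 9 of 21 alternatives. Leaving out CLP replicate 2 moved Myc in CLP+DCA versus CLP to -0.25.

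Leaving out each mouse gave, in CLP versus sham, ranges of -1.59 to 1.61 for Fos, -0.42 to 0.31 for Jun, -0.24 to 0.037 for Jund, -0.16 to 0.50 for Atf3 and -0.19 to 1.42 for Hspa1a. In CLP+DCA versus sham they were -0.63 to 0.84 for Fos, -0.03 to 0.34 for Jund, -1.27 to 1.31 for Egr1, -0.075 to 4.68 for Ier3 and -0.38 to 0.51 for Myc. In CLP+DCA versus CLP they were -1.13 to 1.32 for Fos, -0.41 to 0.28 for Fosl2, -0.21 to 1.68 for Atf3 and -2.76 to 2.44 for Ier3. With voom, signs turned in CLP+DCA versus sham for Fos (0.11), Fosl2 (-0.050), Egr1 (-0.99) and Myc (0.19). In CLP+DCA versus CLP they turned for Fosl2 (-0.50) and Ier3 (-1.56).

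Replicate numbers are shared between groups, but the samples share only a number: deviations of same-numbered mice correlated at a median of -0.025 (range -0.459 to 0.55), over 0.1 in 1 of 12 pairs. With the replicate block, 46 genes and 0 of the 9 were called in CLP versus sham. Signs turned for Fos in CLP+DCA versus sham (0.13). In CLP+DCA versus CLP they turned for Fos (0.0015), Fosl2 (-0.024) and Ier3 (-0.46). Depth limits Fosb (13 reads at most in a group) and Atf3 (12 to 200 reads per mouse).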
